A study of Mus musculus with 2 samples.

Results

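The genes described here encode the integrins, the chains of laminin, and the basement membrane proteins that join laminin to the rest of the matrix, namely the nidogens Nid1 and Nid2, perlecan (Hspg2) and agrin (Agrn). Members were chosen by gene name on the array. The rule used no measured value, though it was set with earlier results of these data known. It took every probe named for an integrin alpha or beta chain, a laminin alpha, beta or gamma chain, Nid1, Nid2, Hspg2 or Agrn. This gave 57 probes of 41 genes, of 39429 probes for 31896 genes and unnamed transcripts on the array. Of the 41 genes, 26 encode integrin chains, 11 laminin chains and 4 the linking proteins. The compared samples were liver sinusoidal endothelial cells, the fenestrated lining cells of the liver's capillaries, from 1 male ob/ob mouse, obese for want of working leptin, the satiety hormone of fat tissue, and from 1 male wild-type mouse. Both mice were 8 weeks old, and neither the strain background nor any further treatment is given in the labels. Both livers were digested with collagenase, an enzyme that cuts matrix, and both preparations spent a night in DMEM with 10% fetal bovine serum before the RNA was extracted. Each RNA was labelled with Cy3 and hybridised to 1 array, so no spread between mice exists for any value below and no test was run.

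Integrins are cell surface receptors made of an alpha and a beta chain that join the matrix or a neighbouring cell to the actin cytoskeleton. Those that share the beta 2 chain, and those that share beta 7, are carried by leukocytes and bind counter-receptors on other cells, such as ICAM1 and MAdCAM1. Most others bind collagen, laminin, fibronectin or vitronectin. Laminins, trimers of an alpha, a beta and a gamma chain, form the sheet of a basement membrane, which nidogens and perlecan tie to the collagen IV network. The hepatic sinusoid has little organised basement membrane, and gain of one accompanies the change of sinusoids towards continuous capillaries.

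The ob/ob array was the brighter one. The 75th percentile of the spot intensity, by which each array was scaled, was 1430 on the ob/ob array and 989 on the wild-type array, and 64.8% of spots on the ob/ob array and 58.6% on the wild-type array were well above background. A difference is the log2 value of ob/ob cells minus that of wild-type cells after that scaling, so it is not the ratio of the signals printed, and the ± beside it is the SD that the scanner's error model gives for this 1 spot on each array. That SD holds no spread between mice. Across all genes measured on both arrays its median was 0.20, and the pooled SD between different probes of 1 gene was 0.33 over 3688 genes. Signals below are intensities before scaling, and the level of one probe cannot be set against that of another. The 12 markers of sinusoidal endothelium examined, among them the scavenger receptors Stab1 and Stab2, were all measured on both arrays. Of these 0 differed by 2-fold or more, with a median difference of -0.20.

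Both arrays measured 33 of the 41 genes, the ob/ob array alone measured 2 (Itga2 and Lamb3), and 6 were measured by neither. The genes above background on neither array were Itgad, Itgae, Itga11, Itgb6, Itgb8 and Lamc3. Of the 33, 12 were at least 2-fold higher in ob/ob cells and 0 at least 2-fold lower. Among the 33 the share that was higher was 36.4%. Of the 18143 genes that both arrays measured, 5.83% were higher and 2.29% lower by that much. The median difference of the 33 was 0.27, where that of all genes was -0.12. The 12 were the leukocyte integrin chains Itgax, Itgb2, Itgb7 and Itgal, the alpha 4 chain Itga4, the matrix-binding chains Itgb5 and Itga7, the laminin chains Lama1, Lamb1, Lama4 and Lama2, and the nidogen Nid2. In bulk RNA, a larger share of a cell type and more RNA of that gene per cell cannot be told apart, which holds for every difference here. When arrays were scaled on their median instead, 9 members were higher and 0 lower, against 4.23% and 5.38% of all genes. With normexp, a model-based background correction, and the 75th percentile, 7 were higher and 4 lower, the lower ones being Itgb4, Itga2b, Lama2 and Lama3. Under that setting 2.03% of all genes were higher and 21.1% lower. These settings also turned the balance of all genes: of those at least 2-fold different, 71.8% were higher in ob/ob cells as reported, 44.0% after median scaling and 8.79% under normexp with the 75th percentile. The median of all genes moved by -0.28 under median scaling and by -0.17 under that normexp setting. All 5 of Itgax, Itgb2, Itgb5, Lamb1 and Nid2 were at least 2-fold higher under all 8 alternatives tried. Not all 8 could change these values. Each of these genes has a single probe, measured on both arrays. Averaging over probes, or adding genes that only one array measured, therefore returned the same value. The authors' table holds the same scaling. At the threshold itself, Lama2 lay just inside with a difference of 1.001 and the integrin chain Itgb3 just outside with 0.94.

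**Figure D1:**
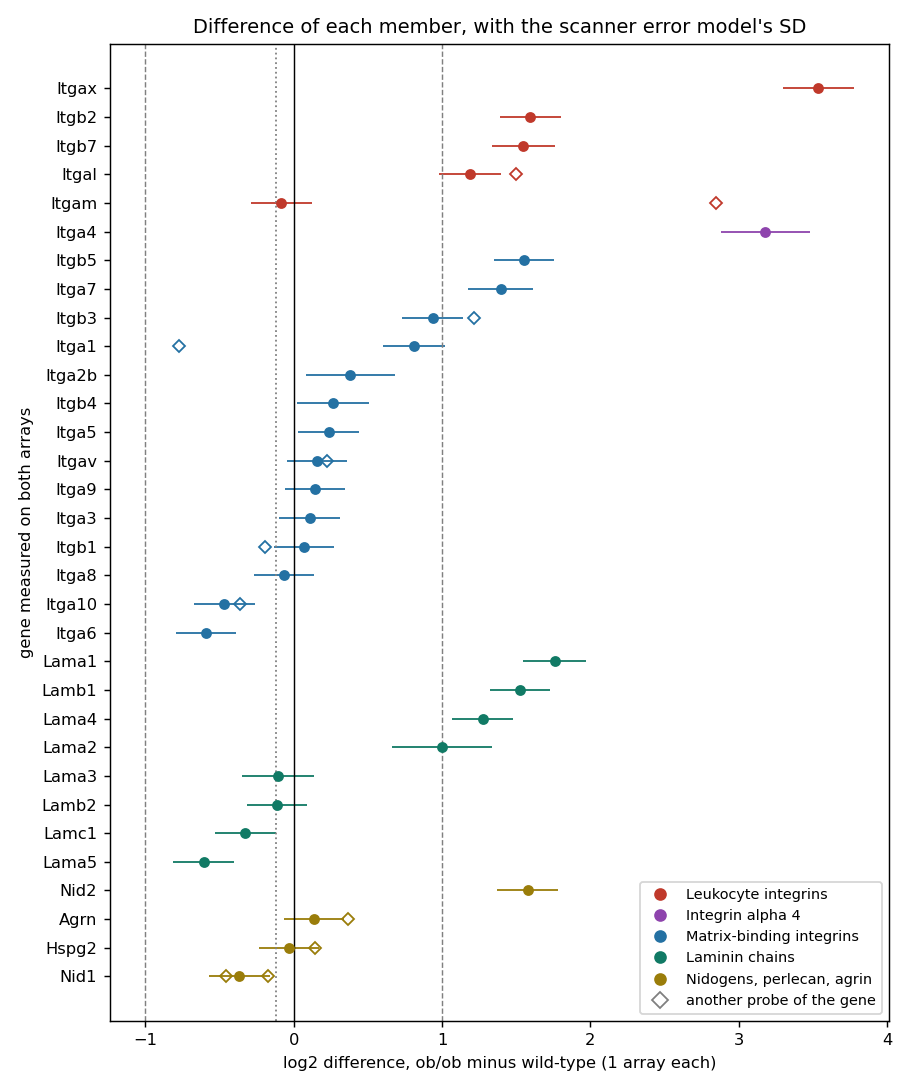
Log2 difference, ob/ob minus wild-type, of 32 of the 33 member genes measured on both arrays, in rows by class. Filled points are the probe that stands for the gene, bars the scanner error model's SD, open diamonds other probes of the gene, dashed lines 2-fold and the dotted line the median of all genes (-0.12). 12 filled points lie at or right of the upper 2-fold line and 0 at or left of the lower one, and the diamonds of Itgam and Itga1 lie far from their filled points.

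The leukocyte integrins were examined as a class of 7 chains. Of these 5 were measured on both arrays, and 4 of the 5 were at least 2-fold higher in ob/ob cells, with a median difference of 1.55. Itgax, the alpha X chain (CD11c) of complement receptor 4, found on dendritic cells and many macrophages, had a signal of 561 in ob/ob cells and 33.4 in wild-type cells. Its difference of 3.54 ± 0.24, or 11.6-fold, was the largest of all members, on a single probe. Under normexp correction with the 75th percentile it was 1.14, still above 2-fold. The probes of Itgax and of Itgb2, the chains of that receptor, are shown by their first 30 of 60 bases, since each is the only probe of its gene.
Itgax probe at chr7:135294052-135294111 (mm9, plus strand): tcccatctacttttgcaacgttggaattga
Itgb2 probe at chr10:77027978-77028037 (mm9, plus strand): aaagctagagcatgagttatcataatcaag

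Itgb2, the beta 2 chain (CD18) with which alpha L, alpha M, alpha X and alpha D must pair to reach the cell surface, had a signal of 2260 in ob/ob cells and 517 in wild-type cells. The difference was 1.60 ± 0.20, or 3.02-fold, and ranged from 1.29 to 1.65 over the alternatives. Itgal, the alpha L chain (CD11a) of LFA-1, the ICAM receptor of leukocytes, had a signal of 273 in ob/ob cells and 82.9 in wild-type cells, a difference of 1.19 ± 0.21. A second probe, 140 in ob/ob cells and 34.3 in wild-type cells, gave 1.497. Both Itgal probes were higher in ob/ob cells by the scaling used here. The first was at 0.91 after median scaling, at 0.49 with normexp and quantile normalization, and at -0.10 under normexp with the 75th percentile. Itgb7, the beta 7 chain of the receptors that bring lymphocytes to the gut, had a signal of 286 in ob/ob cells and 67.7 in wild-type cells. Its difference was 1.55 ± 0.21, and 0.14 under normexp with the 75th percentile. Its alpha E partner, Itgae, the chain of the E-cadherin receptor of intraepithelial lymphocytes, had signals of 3.11 in ob/ob cells and 3.43 in wild-type cells, not well above background on either array. The same held for Itgad, the alpha D chain, at 3.72 in ob/ob cells and 3.39 in wild-type cells. The probes of Itgal, Itgam, Itgax and Itgad all lie on chromosome 7.

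The alpha M chain Itgam (CD11b), the partner of beta 2 in complement receptor 3 on macrophages, neutrophils and monocytes, cannot be given 1 value. Its 3 probes, listed in order along the chromosome, are shown because they disagree. The file places the first on one transcript record of the gene and the other two on another. Capitals mark a run of the dinucleotide CA, and of the last probe only the first 30 of 60 bases are printed.
Itgam probe at chr7:135212140-135212199 (mm9, plus strand): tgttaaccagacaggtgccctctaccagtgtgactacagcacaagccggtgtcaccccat
Itgam probe at chr7:135260275-135260334 (mm9, plus strand): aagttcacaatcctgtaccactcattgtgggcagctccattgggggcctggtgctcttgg
Itgam probe at chr7:135261755-135261814 (mm9, plus strand): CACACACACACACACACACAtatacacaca
The first probe, which starts at base 270 of its transcript, had a signal of 22.8 in ob/ob cells and 9.49 in wild-type cells, and the wild-type value was not well above background. The probe at base 3410 had 186 in ob/ob cells and 17.8 in wild-type cells, a difference of 2.85. The probe at base 4431 had 3070 in ob/ob cells and 2248 in wild-type cells, a difference of -0.08 ± 0.20. The brightest probe stands for a gene here, so Itgam entered the class with -0.08. That brightest probe opens with 10 CA repeats, the only member probe with a run of at least 8 CA or TG. Across the array, 101 probes hold such a run. Of these 100, or 99.0%, were measured on both arrays, against 57.1% of all other probes. Their median difference was -0.19, with 0 at least 2-fold higher and 1 lower, where the shares over all probes that both arrays measured were 5.48% higher and 2.14% lower. Whether the repeat sets the signal of the Itgam probe was not tested. With Itgam taken from its probe at base 3410, all 5 measured leukocyte chains were at least 2-fold higher, 13 of the 33 members were, and the class median was 1.60. That alternative was chosen after the values were seen.

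**Figure D2:**
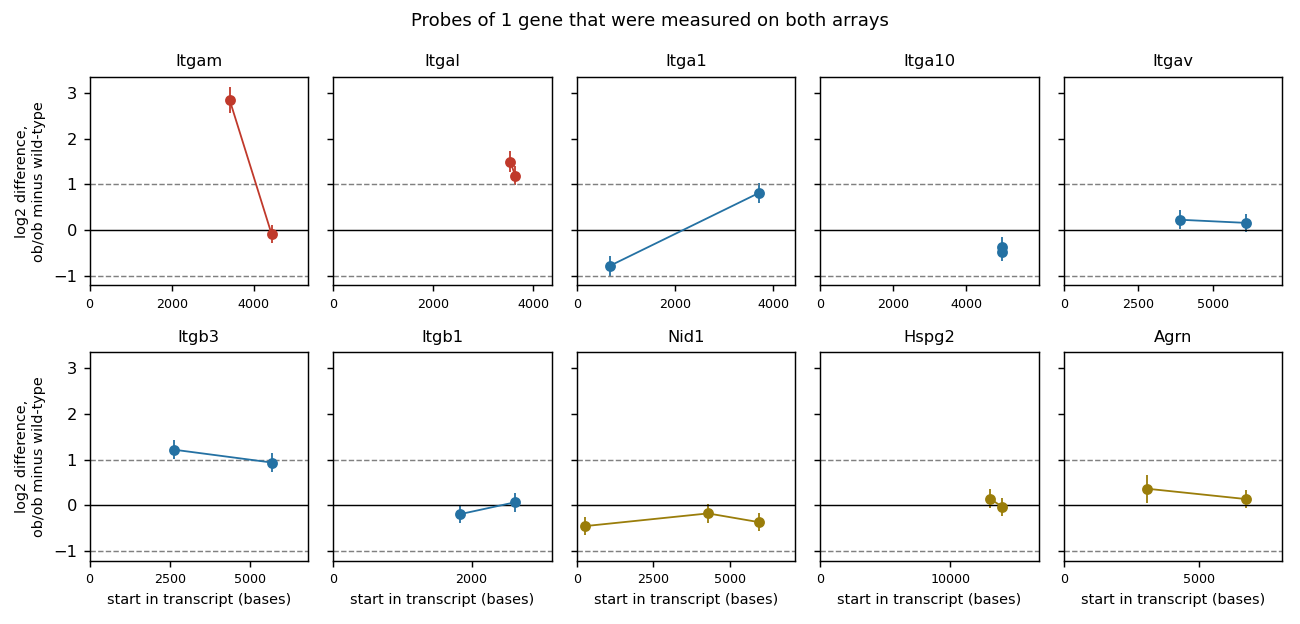
Log2 difference, ob/ob minus wild-type (vertical axis, bars the scanner error model's SD), of each probe of the 10 member genes with more than 1 probe measured on both arrays, against the probe's start in bases in the transcript that the file lists for it. The Itgam probes lie at 2.85 and -0.08 and the Itga1 probes at -0.78 and 0.81, while the probes of the other 8 genes lie within 1 log2 unit of each other.

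Itga4, the alpha 4 chain (CD49d) of VLA-4, binds both VCAM1 on endothelium and fibronectin in the matrix, and so was kept out of both classes. Its signal was 336 in ob/ob cells and 25.6 in wild-type cells, a difference of 3.18 ± 0.30 or 9.06-fold, which was the second largest of all members. The difference was 0.37 under normexp with the 75th percentile. It rests on 1 probe, which starts at base 9754 of the transcript, since a second probe at base 2292 read 2.59 in ob/ob cells and 2.82 in wild-type cells, not well above background on either array. The pair is shown for that reason, with only the first 30 bases of the probe nearer the end.
Itga4 probe at chr2:79153985-79155115 (mm9, plus strand, interval longer than the probe): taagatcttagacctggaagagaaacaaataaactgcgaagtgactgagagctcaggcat
Itga4 probe at chr2:79173193-79173252 (mm9, plus strand): gtgtgtggaatgcattataaagatctaaca

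General markers of leukocytes differed in the same direction as these chains. Of 6 pan-leukocyte genes, 4 of the 5 measured on both arrays were at least 2-fold higher in ob/ob cells, with a median difference of 1.82. They included the phosphatase Ptprc (CD45) at 1.82 and the actin regulator Coro1a at 3.13. The sixth, the transcription factor Spi1, was above background in ob/ob cells alone and at least 1.80-fold higher there. Summed over the 6 genes, the signal in units of the array's 75th percentile was 7.81 in ob/ob cells and 3.30 in wild-type cells. Such a sum is weighted towards the brightest probes of its list. Of 13 macrophage markers, 11 of the 12 measured on both arrays were at least 2-fold higher, with a median of 2.09 and a summed level of 161 in ob/ob cells and 56.8 in wild-type cells, and Cd163 was above background on neither array. Lists of other leukocytes had few measured members. Of 6 dendritic cell markers 1 of 3 measured on both arrays was higher, the chemokine receptor Ccr7, the receptor kinase Flt3 was at least 2.66-fold higher, and Xcr1 and Cd209a were above background on neither array. Of 8 neutrophil markers both arrays measured 2, of which 0 were higher and 1 lower, and Cxcr2 and Ngp were above background on neither. The ob/ob array alone measured 4, among them the collagenase Mmp8, at least 9.30-fold higher, and the calcium-binding proteins S100a9, at least 5.77-fold, and S100a8, at least 2.77-fold. With genes measured on at least 1 array included, 3 neutrophil markers were higher and 1 lower, with a median of 1.15. Of 10 T, NK and B cell markers the ob/ob array alone measured 3, the protease Gzmb, at least 8.80-fold higher, and the T cell receptor partners Cd3d, at least 6.44-fold, and Cd3g, at least 2.01-fold. Of the 2 that both arrays measured 0 differed by 2-fold, and 5 were above background on neither, among them Klrb1c, Cd8a and the B cell markers Cd79a and Ms4a1. With genes measured on at least 1 array included, 3 of that list were higher and 0 lower, with a median of 2.69. The summed levels of these 3 lists were 2.55, 0.31 and 0.65 in ob/ob cells, against 0.70, 0.17 and 0.47 in wild-type cells. Most of the dendritic cell sum in ob/ob cells came from Ccr7. Under normexp with the 75th percentile, 2 of the 5 pan-leukocyte genes were higher, with a median of 0.69, and 11 of the 12 macrophage markers. The part of such cells in the differences of the leukocyte integrins was not tested.

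**Figure D3:**
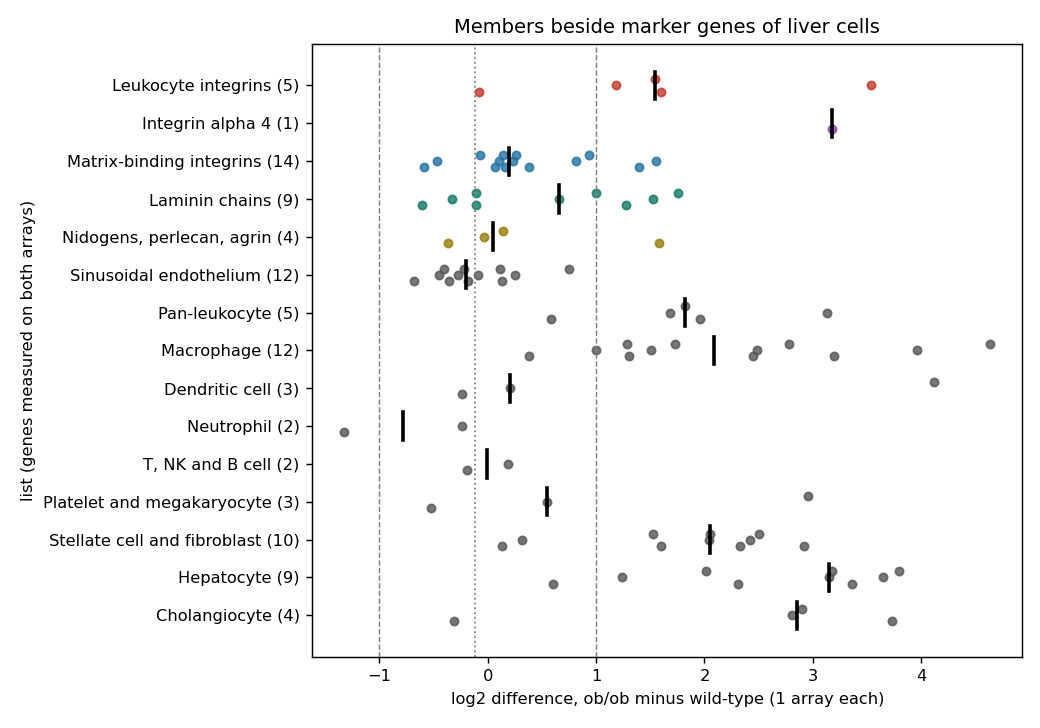
Log2 difference, ob/ob minus wild-type, of the member genes by class (coloured) and of marker genes of liver cells (grey), 1 point per gene measured on both arrays, with the number of genes in brackets. Thick bars are medians, dashed lines 2-fold and the dotted line the median of all genes. The medians of pan-leukocyte, macrophage, stellate cell and hepatocyte markers lie between 1.82 and 3.15, and that of sinusoidal endothelium is -0.20.

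The matrix-binding integrins stood closer to the median of all genes. Both arrays measured 14 of 18 chains. Of these 2 were at least 2-fold higher and 0 lower, with a median difference of 0.20 and a range of -0.59 to 1.55. The beta 1 chain Itgb1, the partner of most matrix-binding alpha chains, had a signal of 13100 in ob/ob cells and 8636 in wild-type cells, a difference of 0.07 ± 0.20. Its second probe gave -0.19, so its probes lay on either side of 0.

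Among the receptors of proteins with the RGD motif, Itgb5, the beta 5 chain of a vitronectin receptor, was the one at least 2-fold higher by the scaling used here. It had a signal of 3190 in ob/ob cells and 752 in wild-type cells, a difference of 1.55 ± 0.20 that lay between 1.27 and 1.63 under the alternatives. Its only partner, alpha V (Itgav), had 1200 in ob/ob cells and 743 in wild-type cells, with differences of 0.16 and 0.23 by its pair of probes. The alpha V beta 5 chains therefore differed unequally, beta 5 by more than alpha V. Itgb3, the beta 3 chain of platelets, osteoclasts and angiogenic endothelium, had 24100 in ob/ob cells and 8700 in wild-type cells. Its difference was 0.94 ± 0.20, and 1.22 by a second probe with 1140 in ob/ob cells and 339 in wild-type cells. Under 5 of the 8 alternatives Itgb3 was at least 2-fold higher, with 1.21 as the highest value and 0.66 as the lowest. The other partner of beta 3, Itga2b, the platelet alpha chain, had 39.8 in ob/ob cells and 21.1 in wild-type cells, a difference of 0.38 ± 0.30, and -1.35 under normexp with the 75th percentile. Of 8 platelet and megakaryocyte markers 1 of 3 measured on both arrays was at least 2-fold higher, Pf4, and Ppbp was at least 8.06-fold brighter in ob/ob cells, while Gp1ba, Gp6 and Gp9 were above background on neither. The summed level of that list was 10.7 in ob/ob cells and 1.46 in wild-type cells. On both arrays nearly all of that sum came from Pf4 alone. The part of platelets in the Itgb3 value was not tested. The fibronectin receptor chain Itga5 differed by 0.24, and Itga8, which binds nephronectin, by -0.07. Itga5 had signals of 738 in ob/ob cells and 433 in wild-type cells, and Itga8 of 1730 in ob/ob cells and 1252 in wild-type cells. Itgb6 and Itgb8, chains of the alpha V receptors that activate latent TGF-beta, were above background on neither array.

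Collagen receptors gave no common direction. Itga1, the alpha 1 chain, a receptor of collagen IV, had a signal of 205 in ob/ob cells and 80.7 in wild-type cells by its brighter probe, a difference of 0.81 ± 0.21 that became -0.35 under normexp with the 75th percentile. Its other probe, nearer the start of the transcript, had 87.1 in ob/ob cells and 103 in wild-type cells, a difference of -0.78. The probes are both given because they point in opposite directions, and the gene's direction is not settled.
Itga1 probe at chr13:115821387-115825525 (mm9, minus strand, interval longer than the probe): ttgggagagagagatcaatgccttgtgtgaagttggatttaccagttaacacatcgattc
Itga1 probe at chr13:115756765-115758419 (mm9, minus strand, interval longer than the probe): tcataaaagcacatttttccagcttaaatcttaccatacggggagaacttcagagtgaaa
Itga2, the alpha 2 chain of the platelet and epithelial collagen receptor, had 41.4 in ob/ob cells and 7.11 in wild-type cells, where it was not well above background. That makes it at least 2.32-fold higher in ob/ob cells. Itga10, a collagen receptor chain of cartilage, had 351 in ob/ob cells and 335 in wild-type cells, and its overlapping probes gave -0.47 and -0.36. Itga11, the fibroblast collagen receptor chain, was above background on neither array.

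Laminin receptors included the other matrix-binding chain at least 2-fold higher. Itga7, the alpha 7 chain known from muscle, had a signal of 241 in ob/ob cells and 63.3 in wild-type cells, a difference of 1.40 ± 0.22, but -0.20 under normexp with the 75th percentile. Itga6, the alpha 6 chain common on endothelium, had 10800 in ob/ob cells and 11238 in wild-type cells, a difference of -0.59 ± 0.20, the lowest of the integrins. It was negative under all 8 alternatives. Its epithelial partner Itgb4, of hemidesmosomes, had 65 in ob/ob cells and 37.4 in wild-type cells, a difference of 0.27 ± 0.24, and -1.18 under normexp with the 75th percentile. Itga3, a chain known from epithelia, had 259 in ob/ob cells and 166 in wild-type cells, a difference of 0.11 ± 0.21, and -0.51 under that normexp setting. Itga9, whose ligands include tenascin C and VCAM1, had 1040 in ob/ob cells and 651 in wild-type cells, a difference of 0.14 ± 0.20.

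The medians of the leukocyte and the matrix-binding integrins differed by 1.35. Of the leukocyte class 80.0% of measured chains were at least 2-fold higher in ob/ob cells, and of the matrix-binding class 14.3%, against 5.83% of all genes. The classes overlapped. Itgam by its brightest probe lay below the matrix-binding median, and Itgb5 lay between Itgb7 and Itgb2. Median scaling shifts every difference by the same amount, so it could not change the gap between medians. The gap was 1.23 with quantile normalization and 1.28 after centring on the level. It was 0.67 with normexp and quantile normalization and 0.27 under normexp with the 75th percentile. It was 1.37 with Itga4 among the leukocyte integrins and 1.31 with Itga4 among the matrix-binding ones. With 1 array per genotype the gap describes these arrays, and no test of it was run.

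**Figure D4:**
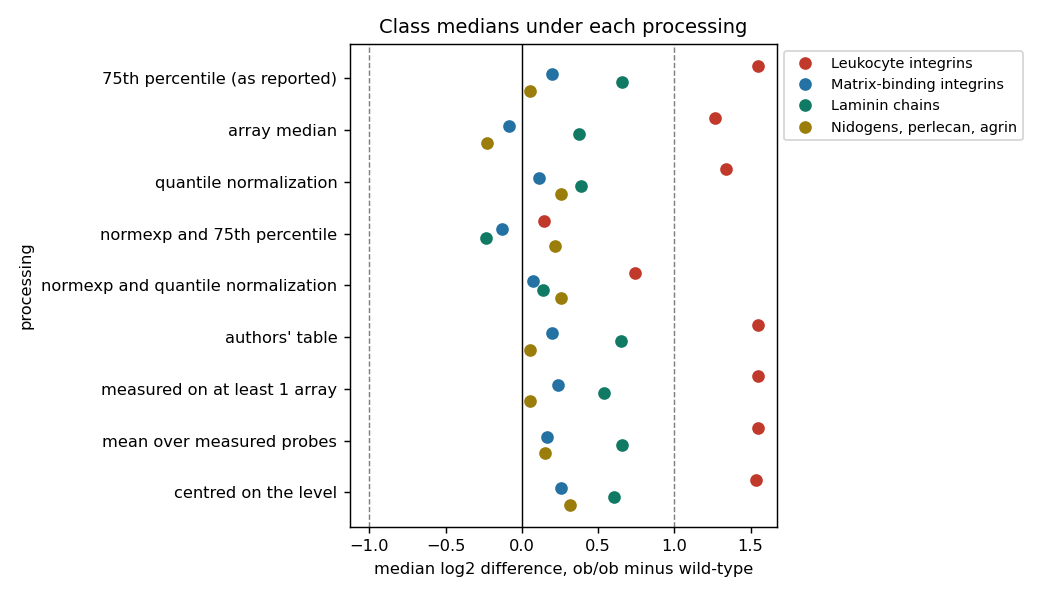
Median log2 difference, ob/ob minus wild-type, of each class (horizontal axis) under the processing as reported and under 8 alternatives (rows). The leukocyte integrins lie right of the matrix-binding integrins in every row, by 1.35 as reported and by 0.27 under normexp with the 75th percentile.

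The laminin chains split by chain. Both arrays measured 9 of 11 chains, of which 4 were at least 2-fold higher and 0 lower, against 5.83% and 2.29% of all genes. The summed level of the class, weighted towards its brightest probes, was 18.0 in ob/ob cells and 18.0 in wild-type cells. The median difference was 0.66. That median was -0.24 under normexp with the 75th percentile and 0.14 with normexp and quantile normalization. The probes of Lama4, at least 2-fold higher under 7 of the 8 alternatives, and of Lamb1 and Nid2, so under all 8, are shown to identify what was measured, with the first 30 bases of the Lamb1 and Nid2 probes, which lie near the end of their transcripts.
Lama4 probe at chr10:38825794-38825853 (mm9, plus strand): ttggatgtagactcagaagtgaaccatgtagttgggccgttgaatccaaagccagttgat
Lamb1 probe at chr12:32014411-32014470 (mm9, plus strand): ccgaggcagtcatctacaaataacccatca
Nid2 probe at chr14:20630490-20630549 (mm9, plus strand): acagtggaaaaggaattggccattatgagt

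Of the alpha chains, which carry the binding sites for integrins, Lama4, the alpha chain of endothelial and mesenchymal basement membranes, had a signal of 5760 in ob/ob cells and 1647 in wild-type cells. Its difference was 1.27 ± 0.20, or 2.42-fold, and 0.99 after median scaling. Lama5, the other alpha chain of endothelial basement membranes, had 5750 in ob/ob cells and 6052 in wild-type cells, a difference of -0.61 ± 0.20, the lowest of all members. The 2 endothelial alpha chains thus lay on opposite sides of 0, and Lama5 was negative under all 8 alternatives. Lama1, the alpha chain of embryonic and some epithelial laminins, had 300.0 in ob/ob cells and 61.2 in wild-type cells, a difference of 1.76 ± 0.21, and 0.24 under normexp with the 75th percentile. Lama2, the alpha chain of muscle laminins, had 43.9 in ob/ob cells and 15.2 in wild-type cells, a difference of 1.001 ± 0.34. It was -1.29 under normexp with the 75th percentile, so the direction of Lama2 is not settled. A second Lama2 probe had 35.6 in ob/ob cells and 8.33 in wild-type cells, where it was not well above background. Lama3, the alpha chain of epithelial anchoring laminins, had 48.3 in ob/ob cells and 35.9 in wild-type cells, a difference of -0.10 ± 0.24, and -1.34 under that normexp setting.

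Of the beta chains, Lamb1, a widespread one, had a signal of 2880 in ob/ob cells and 692 in wild-type cells. Its difference was 1.52 ± 0.20, or 2.88-fold, and lay between 1.25 and 1.60 under the alternatives. Lamb2, the beta chain known from the neuromuscular junction and the kidney filter, had 994 in ob/ob cells and 742 in wild-type cells, a difference of -0.11 ± 0.20. The epithelial beta 3 chain Lamb3 had 21.7 in ob/ob cells and 11.2 in wild-type cells, where it was not well above background, which makes it at least 1.22-fold higher in ob/ob cells. The gamma chain Lamc1, which nearly all laminins share, had 9840 in ob/ob cells and 8520 in wild-type cells, a difference of -0.32 ± 0.20. Lama4, Lamb1 and Lamc1, which form an endothelial laminin together, therefore differed by 1.27, 1.52 and -0.32. Lama5, Lamb2 and Lamc1, which form another, differed by -0.61, -0.11 and -0.32, where the median of all genes was -0.12. Centred on the level, Lama5 differed by -0.40, Lamb2 by -0.06 and Lamc1 by -0.10. Taken with Lamb1 in place of Lamb2, the Lama5 set did not share a sign, at -0.61, 1.52 and -0.32. RNA of single chains does not give the amount of a trimer.

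**Figure D5:**
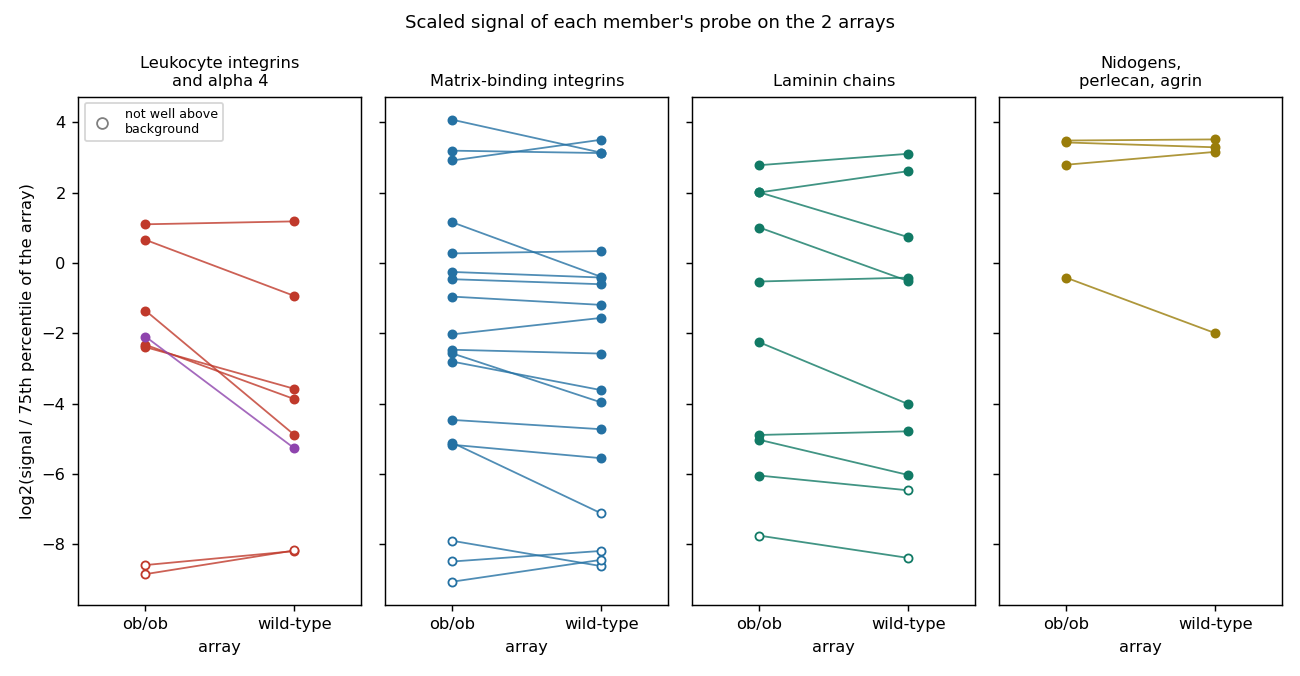
Log2 of the signal over the 75th percentile of its array (vertical axis), for the probe that stands for each member gene reported here, on the ob/ob array (left of each panel) and the wild-type array (right), with a line joining the values of 1 probe. Open points were not well above background. The slope of a line can be read, while heights of different probes cannot be compared, and 12 of the lines between filled points drop by at least 1 log2 unit to the wild-type side.

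The proteins that link laminin to the rest of the basement membrane differed less, with 1 exception. Nid2 (nidogen 2) had a signal of 1070 in ob/ob cells and 248 in wild-type cells, a difference of 1.58 ± 0.20, or 2.98-fold, and between 1.03 and 1.63 under the alternatives. Its close relative Nid1 had 9930 in ob/ob cells and 8847 in wild-type cells, a difference of -0.37 ± 0.20. All 3 Nid1 probes were negative, between -0.45 and -0.18, so the nidogens lay on opposite sides of 0. The median of all genes was itself -0.12, and centred on the level Nid1 differed by -0.14 and Nid2 by 1.63. Perlecan, Hspg2, a heparan sulfate proteoglycan of all vessel basement membranes, had 16000 in ob/ob cells and 11309 in wild-type cells, with differences of -0.03 and 0.14 by its pair of probes. Agrin, Agrn, known for clustering receptors at the neuromuscular junction, had 15400 in ob/ob cells and 9676 in wild-type cells, with differences of 0.14 and 0.37. The median of the 4 was 0.05, and -0.23 after median scaling.

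Markers of hepatic stellate cells, which produce matrix, were mostly higher in ob/ob cells. The higher laminin chains and Nid2 were named for being higher, so that they share this sign carries no information. Lama5 at -0.61, Nid1 at -0.37, Lamc1 at -0.32, Lamb2 at -0.11 and Lama3 at -0.10 had the opposite sign. Of 12 stellate cell and fibroblast markers 8 of the 10 measured on both arrays were at least 2-fold higher in ob/ob cells, with a median of 2.05. All 12 were above background on at least 1 array, and their summed level was 36.1 in ob/ob cells and 8.89 in wild-type cells. On both arrays most of that sum came from a single bright gene. Of 9 markers of cholangiocytes, the bile duct cells, both arrays measured 4, with 3 at least 2-fold higher, and the ob/ob array alone measured a further 4, with a summed level of 5.54 in ob/ob cells and 0.58 in wild-type cells, and 1 was above background on neither. Of 10 hepatocyte markers 8 of 9 measured on both arrays were higher, with a median of 3.15 and a summed level of 29.3 in ob/ob cells and 4.96 in wild-type cells, and Cps1 was above background on neither. Under normexp with the 75th percentile, 2 of the 10 stellate cell markers were higher and 1 lower, with a median of 0.47, and 5 of the 9 hepatocyte markers were higher and 1 lower. The part of these cells in the laminin and nidogen differences was not tested.

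Ligands of integrins other than the laminins were mostly higher in ob/ob cells. Both arrays measured 17 of 21 such genes, 11 of them at least 2-fold higher and 1 lower, against 5.83% and 2.29% of all genes. Their median difference was 1.44, and 0.91 under normexp with the 75th percentile. The largest were osteopontin Spp1, which is also among the cholangiocyte markers, at 3.73, vitronectin Vtn at 2.64, the fibrinogen chains Fgb at 2.53 and Fgg at 2.48, fibronectin Fn1 at 2.40 and tenascin C Tnc at 2.14. Vitronectin and fibrinogen are secreted by hepatocytes, whose markers had a median of 3.15. The part of hepatocytes in the differences of these ligands was not tested. The lower one, named after its value was seen, was Madcam1, the ligand of alpha 4 beta 7, with 450.0 in ob/ob cells and 865 in wild-type cells and a difference of -1.48. Its receptor chains Itga4 and Itgb7 differed by 3.18 and 1.55, the opposite sign, and by 0.37 and 0.14 under normexp with the 75th percentile. Other ligands had the sign of their receptor chains. Vcam1, which alpha 4 also binds, was at 0.60, and Icam1, a ligand of beta 2 integrins, at 1.21, where Itgb2 was at 1.60.

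The proteins that link integrins to actin were mostly within 2-fold. Both arrays measured 27 of 28 genes, of which 3 were at least 2-fold higher and 0 lower, with a median of -0.08. The 3 were Parvg, the parvin of blood cells, at 1.72, Apbb1ip (RIAM), which brings talin to integrins, at 1.33, and Ptk2b. Ptk2b, the kinase PYK2 of blood cells and others, was at 1.24 by its brighter probe and at 0.50 by the other. Fermt3 of the same list, also known from blood cells, was at 0.02. With the mean over probes 2 of the list were higher. Under normexp with the 75th percentile 0 of the list were higher and 1 lower.

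Other receptors of laminin and components of the basement membrane had 16 genes on the array. Of the 11 that both arrays measured 3 were at least 2-fold higher and 0 lower, against 5.83% and 2.29% of all genes. Their median was 0.43. The 3 were the heparan sulfate proteoglycan syndecan Sdc1 at 2.11, the fibulin Fbln2, which binds nidogen, at 1.85 and Col18a1, the source of endostatin, at 1.36. Under normexp with the 75th percentile 1 was higher and the median was -0.22.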

How the data were processed

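Spots of a 1-colour Agilent design (026655, coordinates on mm9) were deposited by the authors as linear intensity values. They come from Agilent Feature Extraction 11.0.1.1, as the submitters' processing notes name it, with spatial and multiplicative detrending on, per the file headers. The authors' deposited table of 24868 features holds a linear ratio, the intensity over the 75th percentile of its array, as its match to the scanner values within 1.42% (ob/ob) and 0.978% (wild-type) showed. Its medians were 0.648 for ob/ob and 0.614 for wild-type. Scale and direction were thus settled, and genes were not centred.

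From the scanner files, control spots and flagged spots (none of a member, each on 1 spot) were left out, the 75th percentile was subtracted on the log2 scale, and the probe with the highest mean stood for a gene. A probe was measured where it was well above background. For a gene measured by 1 array, the lower bound divides its scaled signal by that of the dimmest measured probe on the other array, or by the gene's own there if brighter (dimmest signals 11.7 for ob/ob, 12.3 for wild-type). Gene names were updated through RefSeq accessions of GRCm38.p6 for 26055 probes, which gave Lamb1 for Lamb1-1. Probe sequences and coordinates are those of the wild-type file. Local background at members' spots was 54 to 69 on the ob/ob array and 54 to 80 on the wild-type array. The scaling was tested on simulated data.

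Members, classes, lists, alternatives and the rule for naming genes (every member, and from each list up to 6 genes past 2-fold) were chosen with earlier results of these data known. Values of 1 member gene and of some markers are not reported here, though they enter the counts, medians and sums and, unnamed, the plot of member and marker genes by class. With 1 array per group no p-value exists. Alternatives used limma 3.58.1 in R 4.3.3 for normexp (offset 50) and quantile normalization, and a running median over 501 genes for centring on the level.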

Additional observations from a re-analysis of the deposited data

How the results depend on the processing

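A class median counts as moved where it changed by more than 0.33, the SD between probes of 1 gene, and a count where it changed by more than 1.5 times. Scaling on the array median, quantile normalization, the authors' table, genes measured on at least 1 array, the mean over probes, centring on the level and the class of Itga4 moved none of the class medians, their gap or the counts in this sense. The gap could not change under median scaling, which shifts every difference alike. Within that margin the matrix-binding median was -0.08 after median scaling and -0.13 under normexp with the 75th percentile, and the median of the nidogens, perlecan and agrin was -0.23 after median scaling. Normexp correction moved others. With normexp and the 75th percentile the leukocyte integrin median was 0.14, the laminin median -0.24 and the gap between leukocyte and matrix-binding integrins 0.27, with 7 members at least 2-fold higher and 4 lower, and among the 12 higher members Itgal at -0.10, Itga7 at -0.20 and Lama2 at -1.29 changed sign. With normexp and quantile normalization the leukocyte median was 0.74, the laminin median 0.14 and the gap 0.67. Under that setting 8 members were higher and 0 lower, against 2.72% and 0.71% of all genes. Of the 12 members at least 2-fold higher, 5 were so under all 8 alternatives, 9 were positive under all 8 and 3 were not. Not all 8 could change such a value. Adding genes that only one array measured leaves the others as they were, and the authors' table holds the same scaling. The mean over probes acts only on genes with several measured probes. The alternatives with Itgam by its other probe, or left out, were chosen after seeing the data and gave leukocyte medians of 1.60 and 1.57. The marker and pathway lists were taken through the 8 alternatives after seeing the data. The cause of the normexp changes was not tested. No paired analysis was possible because each group holds 1 array. No replicate could be left out for the same reason.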

Other observations

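Genes named after integrins but outside the families described were looked at after the array's names were listed. The beta-like genes Itgb2l and Itgbl1 and the muscle protein Itgb1bp2 (melusin) were above background on neither array. Itgb1bp1 (ICAP1), which binds the tail of beta 1, had signals of 3420 in ob/ob cells and 2717 in wild-type cells and a difference of -0.20, and Itgb3bp, a centromere protein despite its name, had 809 in ob/ob cells and 652 in wild-type cells and a difference of -0.22.

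Of the 10 member genes with more than 1 probe measured on both arrays, 4 had probes of opposite sign, namely Itgam, Itga1, Itgb1 and Hspg2, and 2 of them, Itgam and Itga1, had probes more than 1 log2 unit apart.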
